A study of Homo sapiens with 14 samples.

Results

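The listed microRNAs (miRNAs) of the imprinted DLK1-DIO3 domain at 14q32 were almost undetected in extracellular vesicles (EVs) from the medium of human epicardial cells. They are 38 named miRNAs of the domain, among 2632 miRNAs in the table of counts, and were taken by name, without regard to their values. Together they held 6 of 47091 counts in 14 libraries. Of the 38 miRNAs, 5 (13.2%) had any count and 33 had none, while 17.0% of all 2632 miRNAs had a count. The 5 were miR-127-3p, miR-379-5p, miR-409-3p, miR-432-5p and miR-485-5p. Of these, miR-432-5p had 2 counts and each of the others had 1.

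All groups were plated from pro-epicardial cells of 1 source, the human embryonic stem cell line hES-2. The epicardium is the outer covering of the heart. NT cells were grown without additive (3 libraries), and the labels call them pro-epicardial. SB cells, called mature epicardial, were kept for 8 days in 6 µM SB-431542, which blocks TGF-β receptor signalling (4 libraries). TGFb cells had 5 ng/ml TGF-β1 for 4 days followed by 4 days without it (4 libraries). FGF cells had 10 ng/ml basic FGF for 8 days (3 libraries). The medium of every group was passed through a 100 kDa filter on day 4 and collected on days 6 and 8, and EVs were precipitated from it with a polymer kit. Replicate numbers run from 1 to 4, with no NT replicate 2 and no FGF replicate 1. The labels do not say that the replicates came from separate cultures, so the spread between them may be technical. Fewer EVs of a kind and less of a miRNA per EV cannot be told apart in such material.

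The DLK1-DIO3 domain is imprinted, which means that its genes are read from only 1 parental copy. The protein genes DLK1, RTL1 and DIO3 are read from the paternal copy, and the long non-coding RNAs MEG3, MEG8 and MEG9, the small nucleolar RNAs and the miRNAs from the maternal copy. miRNAs pair with messenger RNAs through a seed near their 5′ end and lower their output. The miRNAs of this domain are known from placenta, brain, developing muscle and stem cells, and silencing of the maternal genes has been used as a sign of altered imprinting in cultured pluripotent cells.

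The 5 sequences that were counted are shown because they carry all of the signal of the listed miRNAs, and miR-382-3p because it is the only other miRNA among the hairpins with a count. They were chosen for display after the counts were seen. Sequences and positions are RefSeq's (GRCh38.p14, plus strand), with the seed, bases 2 to 8, in capitals.
miR-127-3p: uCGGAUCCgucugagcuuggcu
miR-432-5p: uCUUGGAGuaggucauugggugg
miR-379-5p: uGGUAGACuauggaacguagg
miR-485-5p: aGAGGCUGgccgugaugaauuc
miR-409-3p: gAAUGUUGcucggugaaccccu
miR-382-3p: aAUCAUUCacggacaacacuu

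All 38 listed miRNAs matched a RefSeq sequence, and their seeds were 38 different ones. Among the 442 other miRNAs with a count, 401 had a RefSeq sequence, and 0 of these shared a seed with a listed miRNA. Outside the list, 9 RefSeq miRNAs did share one, and each of the 9 had 0 counts. One of them is miR-3529-5p, with the seed of miR-379-5p, and another is miR-6884-5p, with the seed of miR-485-5p. The closest other sequence with a count lay 8 edits (base changes, insertions or deletions) from miR-127-3p, miR-379-5p, miR-409-3p and miR-432-5p, and 9 edits from miR-485-5p. For miR-409-3p this neighbour was miR-429, with 12 counts, and for miR-127-3p it was miR-769-5p, with 51. Among all RefSeq sequences, counted or not, closer ones exist for some. miR-377-5p (0 counts) lay 4 edits from miR-485-5p, and miR-487a-3p (0 counts) lay 5 from miR-382-3p. The closest lay 7 edits from miR-127-3p and miR-379-5p, and 8 from miR-409-3p and miR-432-5p. The GC content of the 38 sequences had a median of 45.5%, from 23.8% to 70.0%. The 5 with a count had a median of 54.5%, and the 401 other counted miRNAs 52.9%.

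The listed miRNAs lie on chromosome 14 from 100869075 to 101065981, which is 197 kb of the 837 kb from the start of DLK1 to the end of DIO3. By position, 4 lie before RTL1, 6 opposite RTL1, 1 apart (miR-370-3p) and 27 in the distal cluster. All 4 before RTL1 had 0 counts: miR-493-5p, miR-493-3p, miR-337-3p and miR-665. The 6 opposite RTL1 are antisense to an exon of that gene, and such antisense miRNAs are known to target its messenger RNA. They held 3 of the 6 counts. miR-127-3p (100883035 to 100883056) and miR-432-5p (100884496 to 100884518) had counts, and miR-431-5p, miR-433-3p, miR-136-5p and miR-136-3p had 0.

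The distal cluster also held 3 counts, each of a different miRNA. Of its 9 members in introns of the non-coding gene MEG8 (GENCODE 29), miR-379-5p (101022071 to 101022091) had 1 count. The other 8 had 0: miR-411-5p, miR-299-3p, miR-323a-3p, miR-758-3p, miR-329-3p, miR-494-3p, miR-543 and miR-495-3p. The next 4, miR-376c-3p, miR-376a-3p, miR-654-5p and miR-654-3p, lie in no annotated host gene and had 0 counts. The 4 in introns of MIR381HG, which are miR-381-3p, miR-487b-3p, miR-539-5p and miR-889-3p, had 0 counts. Of the following 6, which also have no host gene, miR-485-5p (101055427 to 101055448) had 1 count, while miR-382-5p, miR-134-5p, miR-485-3p, miR-154-5p and miR-377-3p had 0. miR-134 is known as a neuronal miRNA that limits the growth of dendritic spines. Of the last 4, which lie within MEG9 in GENCODE 29 and before its start in RefSeq, miR-409-3p (101065346 to 101065367) had 1 count, in an intron, and miR-369-5p, miR-369-3p and miR-410-3p had 0. By arm, 4 counts were of 13 listed 5p miRNAs and 2 of 23 listed 3p miRNAs. The counts thus came from the stretch opposite RTL1 and from the distal cluster, in equal number. Those opposite RTL1 were all in libraries numbered 2 (SB and TGFb), and the distal ones all in libraries numbered 4 (NT, TGFb and FGF). Position and replicate number therefore cannot be told apart in these counts.

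**Figure D1:**
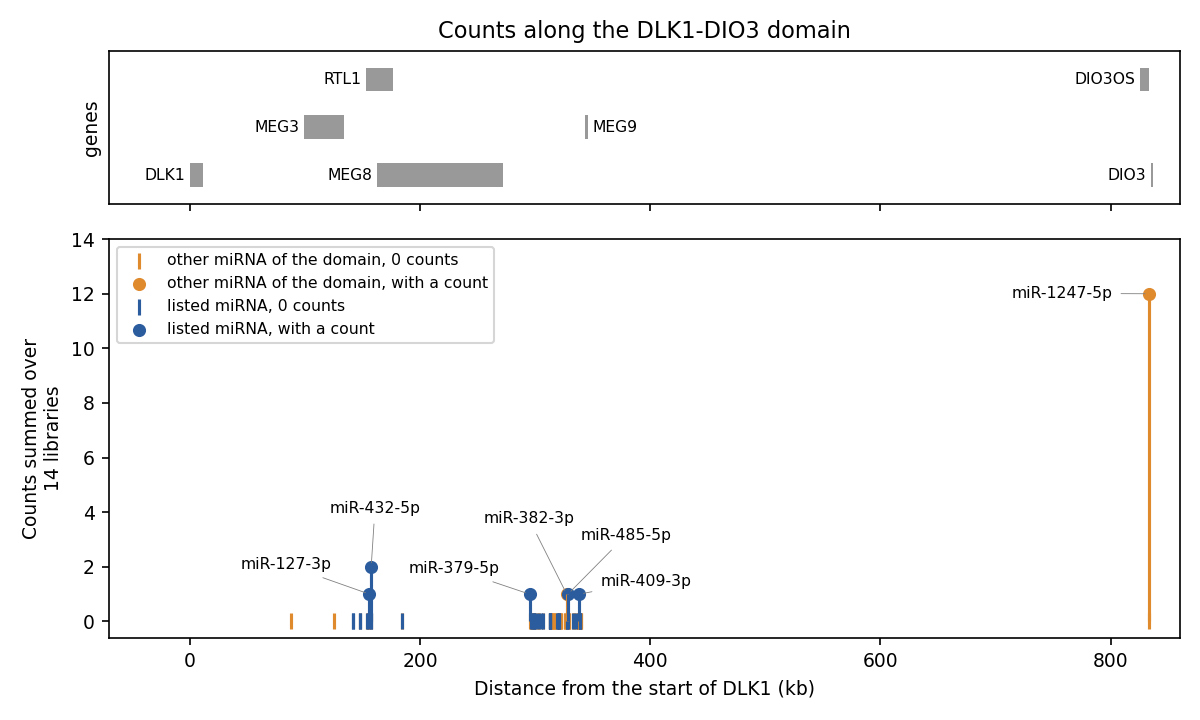
Counts of each miRNA of the domain summed over the 14 libraries (vertical axis) against the distance of its start from the start of DLK1 in kb (horizontal axis), with the RefSeq spans of 7 genes above; the GENCODE models of MEG8 and MEG9 reach into the distal cluster and these RefSeq spans do not. Listed miRNAs (blue) reach at most 2 counts, and miR-1247-5p (orange), at the DIO3 end, has 12.

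The other miRNAs between the same hairpins were taken as a fixed list. Of 53 of them, 1 had a count: miR-382-3p (101054352 to 101054372), the partner arm of miR-382-5p, with 1 count in TGFb replicate 4. That library also held the count of miR-379-5p. Over the whole region, 6 of 91 miRNAs had a count, and they held 7 counts. The shares with a count were 1.89% of the 53, 6.59% of the 91 and 17.0% of all miRNAs in the table. Outside the region but within the domain lie 4 more miRNAs in the table, of which miR-2392, miR-770-5p and miR-1247-3p had 0 counts. miR-1247-5p (101560362 to 101560383, minus strand, in an exon of DIO3OS, the non-coding antisense gene of DIO3) had 12 counts, and it is singled out here after its values were seen. Its counts were 3 in NT replicate 4, 1 in SB replicate 4 and 8 in TGFb replicate 4, with 0 in the other 11 libraries.

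Each count was read against the depth of its library. Totals ran from 115 to 14862 counts, so that 1 count is 0.870% where the total was lowest and 0.00673% where it was highest. Each share is given with its 95% Wilson interval. Where a library had 0 counts, the upper limit is 3 counts divided by its total. Both cover counting error only, and whether the counts are of reads or of molecules is not given in the sources used here.

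In the SB group, replicate 2 had 2 of 179 counts on the listed miRNAs, 1 of miR-127-3p and 1 of miR-432-5p. This was a summed share of 1.12% (95% Wilson interval 0.307% to 3.98%). SB replicates 1, 3 and 4 had 0 of 345, 0 of 3826 and 0 of 1286 counts, which allow up to 0.870%, 0.0784% and 0.233%. So 1 of the 4 SB libraries held both counts, and it was the shallowest of the group. In that library 32 of 62 detected miRNAs had exactly 1 count, as these 2 did.

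In the TGFb group, replicate 2 had 1 of 231 counts, of miR-432-5p (0.433%, 0.0765% to 2.41%). TGFb replicate 4 had 1 of 2770 counts, of miR-379-5p (0.0361%, 0.00637% to 0.204%). TGFb replicates 1 and 3 had 0 of 1418 and 0 of 7478 counts, which allow up to 0.212% and 0.0401%. No listed miRNA was counted in more than 1 TGFb library. miR-432-5p was the only listed miRNA counted in 2 of the 14 libraries, both numbered 2.

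In the NT group, replicate 4 had 1 of 1010 counts, of miR-485-5p (0.0990%, 0.0175% to 0.559%). NT replicates 1 and 3, the deepest of the series, had 0 of 14862 and 0 of 9462 counts, which allow up to 0.0202% and 0.0317%. In the FGF group, replicate 4 had 1 of 868 counts, of miR-409-3p (0.115%, 0.0203% to 0.650%). FGF replicates 2 and 3 had 0 of 115 and 0 of 3241 counts, which allow up to 2.61% and 0.0926%. In both groups the single count was in the library numbered 4.

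The NT libraries had a mean summed share of 0.0330% ± 0.0572 (SD, n = 3), and the FGF libraries 0.0384% ± 0.0665 (SD, n = 3). The TGFb libraries had 0.117% ± 0.211 (SD, n = 4) and the SB libraries 0.279% ± 0.559 (SD, n = 4). No order of the groups is read from these means: without replicate 2, those of SB and TGFb were 0% and 0.0120%. In libraries of at least 500 counts the means were 0% in SB, 0.0120% in TGFb, 0.0330% in NT and 0.0576% in FGF. The SD exceeded the mean in every group, and all 4 groups had libraries at 0, so their values overlapped. With the counts of each group pooled, the listed miRNAs held 1 of 25334 counts in NT (Wilson interval 0.000697% to 0.0224%) and 2 of 5636 in SB (0.00973% to 0.129%). They held 2 of 11897 counts in TGFb (0.00461% to 0.0613%) and 1 of 4224 in FGF (0.00418% to 0.134%). These 4 intervals overlap. No fold change is given, because every miRNA and every group sum was under the floor of 3 counts.

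**Figure D2:**
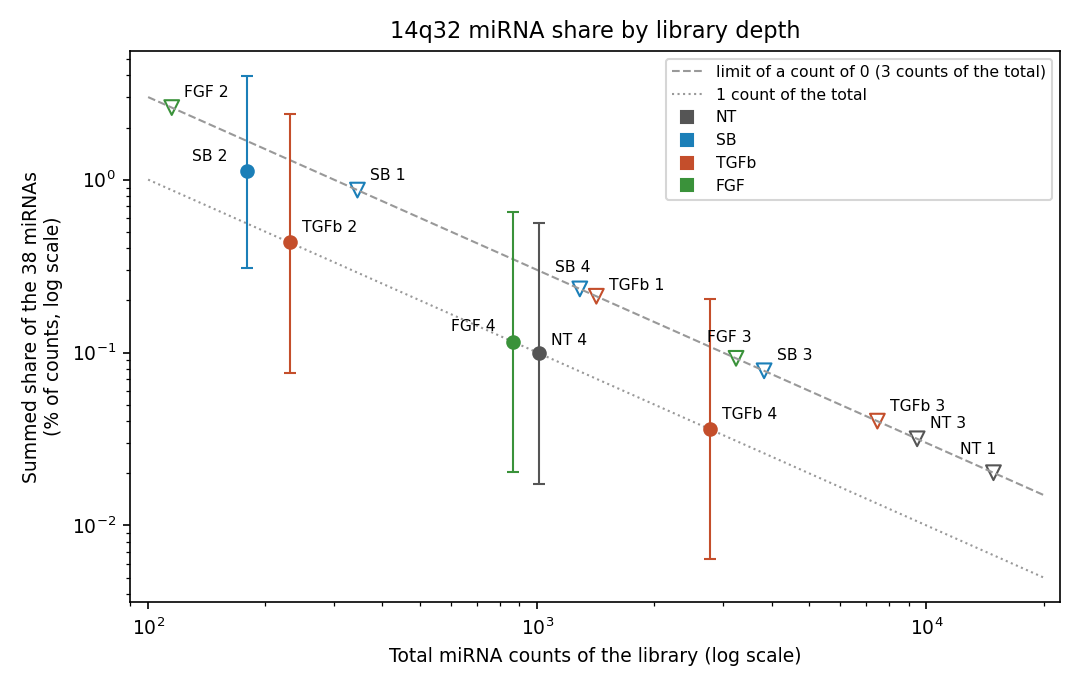
Summed share of the 38 listed miRNAs in percent of counts (log scale) against the total counts of the library (log scale), with filled circles and 95% Wilson intervals for the 5 libraries that held a count and open triangles at the limit for the 9 that held none. The filled circles lie between 179 and 2770 total counts, and the 5 libraries above 3000 counts are all open triangles.

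The comparisons between groups ask whether the stage of the cells or the added factor changed what the EVs carried. They were made on all miRNAs at once with the quasi-likelihood test of edgeR, at an adjusted p of 0.05. Only 47 of all 2632 miRNAs had enough counts to be tested. Of the 38 listed miRNAs, 0 were among them, so 0 were called in any comparison. Among the 4 groups, 0 of 47 tested miRNAs were called (0%), and 5 had an unadjusted p under 0.05. The background was 2.13% (1 of 47) in SB against NT and likewise 2.13% (1 of 47) in FGF against NT. It was 0% (0 of 47) in TGFb against NT, with 2 at an unadjusted p under 0.05. It was 0% in TGFb against SB (4 unadjusted). It was also 0% for FGF against SB (3 unadjusted) and for TGFb against FGF (7 unadjusted). When the replicate number entered the fit as a block, the background was 8.51% (4 of 47) among the 4 groups. It was then 6.38% (3 of 47) between TGFb and SB, 4.26% (2 of 47) between FGF and NT as well as between FGF and TGFb, and 2.13% (1 of 47) between FGF and SB. The comparisons of SB and of TGFb with NT kept their number of calls, 1 and 0. Again 0 listed miRNAs were tested.

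With no filter on low counts, the 5 listed miRNAs with a count entered the test, among 447. Again 0 of the 5 were called by edgeR in any of the 7 comparisons, and 0 had an unadjusted p under 0.05. DESeq2 on the same 447 also called 0 of the 5, and 0 had an unadjusted p under 0.05. The background in edgeR was 0.224% (1 of 447) among the 4 groups and 0.224% in FGF against NT, and 0% in the other 5 comparisons. The smallest unadjusted p of a listed miRNA in edgeR was 0.0995, of miR-409-3p in FGF against NT (adjusted p = 0.674), and it rests on 1 count in FGF replicate 4. For miR-127-3p and for miR-432-5p in SB against NT it was 0.104 (adjusted p = 0.618), on 1 count each in SB replicate 2. For miR-432-5p in TGFb against NT it was 0.145 (adjusted p = 0.732), again on 1 count. For miR-485-5p, counted only in NT, the adjusted p was 0.711 in SB, 0.732 in TGFb and 0.733 in FGF, each against NT. Each of the 5 had only 1 or 2 counts in the whole series. A difference between groups was therefore not detectable at this depth, by either method.

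The 6 counts were unevenly placed over the libraries. The 5 libraries of at least 3000 counts (NT replicates 1 and 3, SB replicate 3, TGFb replicate 3 and FGF replicate 3) held 82.5% of all counts and 0 counts of the listed miRNAs. Together they allow a share of up to 0.00772%. The 9 libraries under 3000 counts held 6 of 8222 (0.0730%, Wilson interval 0.0334% to 0.159%). For scale, 169 other miRNAs had a total of 1 or 2 counts in the series, and 74.4% of those 234 counts were in the 5 deep libraries. Of the 169, 23.7% had no count in a deep library, as did all 5 of the listed miRNAs that were counted. The line at 3000 was drawn after the values were seen.

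The same 6 counts were all in libraries numbered 2 or 4, in 5 of these 7 libraries. This split was drawn after the values were seen. Libraries numbered 2 held 3 of 525 counts and those numbered 4 held 3 of 5934. Libraries numbered 1 and 3 held 0 of 16625 and 0 of 24007, which allow up to 0.0180% and 0.0125%. Depth and number cannot be told apart here, since every library numbered 3 is above 3000 counts and none numbered 2 or 4 is. The 2 libraries under 3000 counts that are numbered 1 had 0 of 1763 counts, which allows up to 0.170%, above the 0.0929% found in the libraries numbered 2 and 4.

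Of the marker lists of other cell types, miR-122-5p and the epithelial markers are given by replicate number, singled out after their values were seen and without a test. miR-122-5p, the defining miRNA of liver cells, had 34 counts in 9 libraries. It took 0.144% to 0.778% of the 4 libraries numbered 4 and 3.91% (7 counts) of SB replicate 2, the library with 2 counts of the listed miRNAs. It took 0% to 0.0705% of the libraries numbered 1 and 0% to 0.0309% of those numbered 3. It was at 0 in TGFb replicate 2, which did hold a count of miR-432-5p. In FGF replicate 2, which held 0 counts of the listed miRNAs, it took 0.870% (1 count). The 6 epithelial markers (the miR-200 family with miR-141, and miR-205) all had counts, 127 in sum. They took 1.16% to 1.84% of the libraries numbered 4 and 0.0936% to 0.123% of those numbered 3. In the libraries numbered 1 they took 0.0404% to 0.870%, and in those numbered 2 from 0% to 0.870%. SB replicate 4, with 1.71% epithelial markers and 0.778% miR-122-5p, had 0 counts of the listed miRNAs. The endothelial markers (both arms of miR-126) overlapped between all 4 numbers: they took 0.0269% to 1.45% of the libraries numbered 1, 0% to 3.91% of those numbered 2, 0.0535% to 0.802% of those numbered 3 and 0% to 1.04% of those numbered 4. The heart muscle markers overlapped too, at 0.0202% to 0.870% for number 1, 0% to 0.559% for number 2, 0.0134% to 0.131% for number 3 and 0% to 0.792% for number 4. The neural list, all of it miR-9-5p, took 2.23% to 3.48% of the libraries numbered 2 and 0.0267% to 2.90% of the others. The blood list overlapped between the numbers. It took 0% to 0.141% for number 1, 0% to 0.870% for number 2, 0% to 0.185% for number 3 and 0.108% to 0.297% for number 4. The pluripotency list took at most 0.0990% of any library, and 0% of those numbered 2. The part of these cell types, of the replicate number or of the depth in the 6 counts was not tested.

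**Figure D3:**
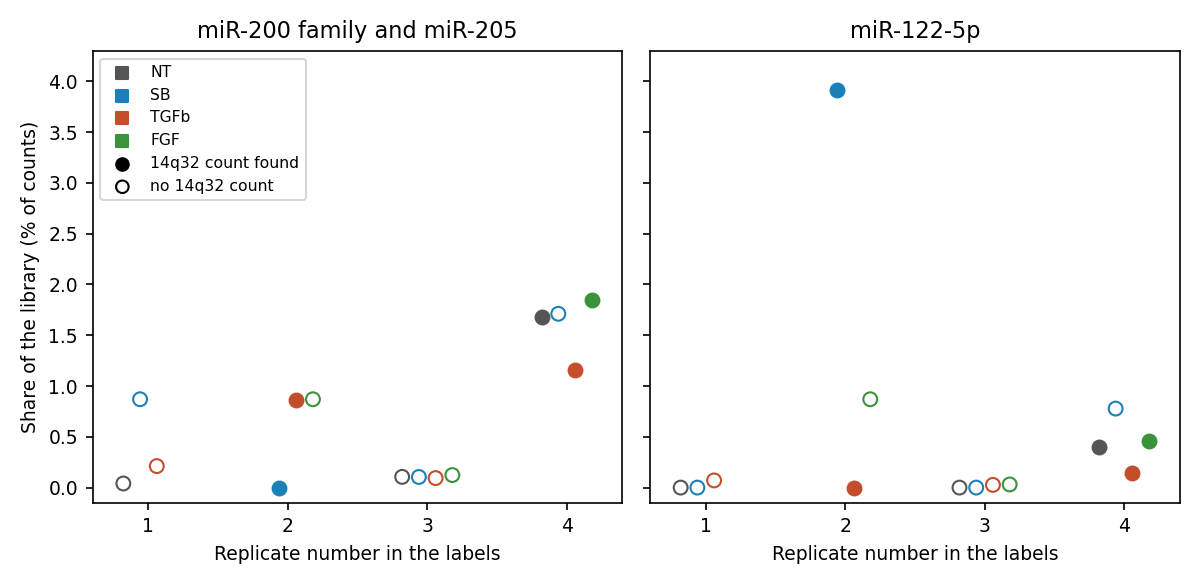
Share of each library (percent of counts) taken by the epithelial markers (left) and by miR-122-5p (right) against the replicate number, coloured by group; filled circles are the 5 libraries with a count of a listed 14q32 miRNA. The libraries numbered 4 lie between 1.16% and 1.84% on the left, those numbered 3 between 0.0936% and 0.123%, and SB replicate 2 reaches 3.91% on the right.

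Against all miRNAs of the table, 13.2% of the listed ones (5 of 38) had a count, beside 17.0% of all (447 of 2632). The median total was 0 in both sets. None of the 38 reached 10 counts in sum (0%), as 6.23% of all miRNAs did. The highest total was 2 among the listed miRNAs and 13131 over the whole table.

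Of the imprinted miRNAs examined on other chromosomes, only the miR-483 arms were counted in the same libraries. The miR-483 arms, from an intron of the paternally read growth factor gene IGF2 at 11p15, took 13.0% to 49.9% of each of the 14 libraries. The other miRNAs of that domain, both arms of miR-675 from the maternally read H19, had 0 counts in all 14. The large 19q13 cluster C19MC is read from the paternal copy in placenta and early embryos. Of its 55 miRNAs, 0 had a count, beside 17.0% of all miRNAs in the table. This allows up to 0.00637% of all 47091 counts. The libraries numbered 2 had 13.0% to 22.9% of miR-483 and those numbered 4 had 13.4% to 24.8%. Those numbered 1 had 34.2% to 49.9% and those numbered 3 had 26.7% to 48.0%, without overlap with the former. This split by number was drawn from where the listed miRNAs were counted. How many other miRNAs separate by it was not counted, and a link between miR-483 and the listed miRNAs was not tested. The listed 14q32 miRNAs had 0, 1 or 2 counts and the C19MC miRNAs 0 counts in each of the 14 libraries. A test of the difference between miR-483 and the listed miRNAs was not made, since the sets were chosen with their levels known.

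**Figure D4:**
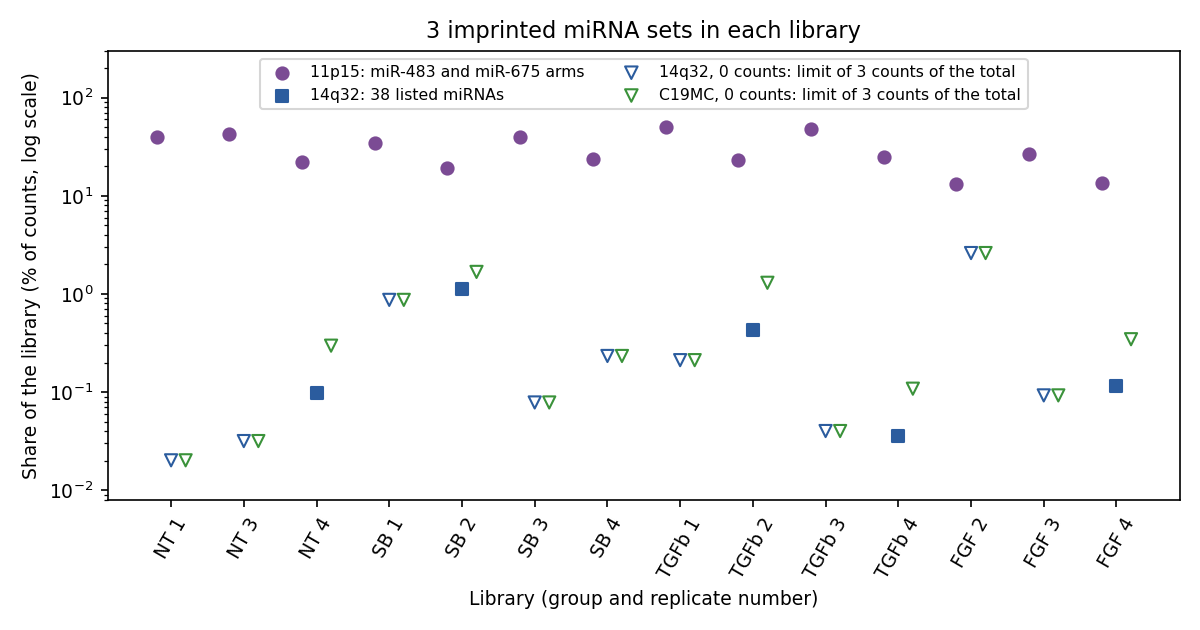
Share of each library (percent of counts, log scale) for 3 imprinted sets: the miR-483 and miR-675 arms (circles), the 38 listed 14q32 miRNAs (squares) and the 55 C19MC miRNAs (no counts); open triangles mark the limit of 3 counts of the total where a set had 0 counts. The circles lie between 13.0% and 49.9%, and the 5 squares between 0.0361% and 1.12%.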

How the data were processed

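EV miRNAs were measured in 14 libraries in 4 groups. Per the file headers, the authors deposited a table of raw counts per miRNA, which holds whole numbers that are not normalized. Their second deposited table holds adjusted values, treated as a score because no header or label says how they were made. It left every value of the listed miRNAs unchanged. The build is GRCh38, per the submitters' processing notes, and the aligner, the miRNA annotation and the use of molecular identifiers are not given in the sources used here.

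Counts of the listed miRNAs were summed per library and divided by the library total (115 to 14862 counts). Comparisons used edgeR 4.0.16 in R 4.3.3 (TMM, glmQLFit with robust estimation, filterByExpr with a minimum count of 10, all 14 libraries in 1 fit, Benjamini-Hochberg adjustment), and DESeq2 1.42.0 and limma 3.58.1 in alternatives. The fit was also run on simulated counts with changes of known direction. Their spread was set and not estimated from these libraries, so no result here rests on that run. Edit distances to RefSeq sequences, of counted miRNAs and of all, came from edlib 1.3.9.post1. Of the 2632 miRNAs in the table, 2349 had a RefSeq sequence. The filter kept 47 miRNAs.

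The miRNAs, the lists and the tests were chosen with earlier results of these data known. The rule was to describe singly those with at least 10 counts or in at least 3 libraries. None met it, so every miRNA with a count was described instead. No 2 libraries were identical. Libraries of the same replicate number tended to deviate together (mean correlation 0.341 over 18 pairs, above 0.1 in 16 and lowest at 0.00356). Not every pair passed 0.1, so the numbers were treated as a possible batch and not as pairs, and the block was fitted as an alternative.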

Additional observations from a re-analysis of the deposited data

Results flagged for a closer look

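In the groups of 4 libraries (SB and TGFb), 6 sets of shares had any count and were checked for 1 library apart from the other 3, and all 6 had one. Chance gives about 0.3 of 6, but a miRNA with a count in 1 library of 4 always stands apart by this measure, which holds for 5 of the 6 sets. SB replicate 2 stood apart for the summed share of the 14q32 miRNAs (1.12%), for miR-127-3p (0.559%) and for miR-432-5p (0.559%), on 1 count for each miRNA. TGFb replicate 2 stood apart for miR-432-5p (0.433%) and for the summed share (0.433%), with a gap of 0.917 of the range. TGFb replicate 4 stood apart for miR-379-5p (0.0361%), on 1 count.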

How the results depend on the processing

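The number of listed miRNAs called was 0 in each of the 7 comparisons and in all 161 alternative values: RLE factors, library size only, DESeq2, no expression filter, the replicate block, the authors' adjusted table, libraries of at least 500 counts and each library left out. Only the 21 values with no expression filter tested any listed miRNA (5), so the others say nothing about stability. With the replicate block the number called was 0, also with no expression filter, where the smallest unadjusted p of a listed miRNA was 0.550. The block changed no call among them. On the 47 filtered miRNAs, where 0 listed ones were tested, it called more of the other miRNAs in 5 of the 7 comparisons. With no filter, it called 1 of 447 in SB against NT and in TGFb against SB, where the fit without it called 0. In FGF against NT it called 0, where the fit without it called 1. The rest kept their number of calls. The fits with no filter in DESeq2 or with the block, and those by library depth, were added after the data were seen.

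The 6 counts fell to 3 in libraries of at least 500 counts, to 3 without the libraries numbered 2 and to 3 without those numbered 4. Without each library in turn, the mean share ran from 0% to 0.0495% in NT, 0% to 0.372% in SB, 0.0120% to 0.156% in TGFb and 0% to 0.0576% in FGF. A single library decided the mean in NT (replicate 4), SB (replicate 2) and FGF (replicate 4), without which it was 0%. In TGFb it was 0.0120% without replicate 2. Pooling the counts lowered the share from 0.279% to 0.0355% in SB, 0.117% to 0.0168% in TGFb, 0.0330% to 0.00395% in NT and 0.0384% to 0.0237% in FGF, which puts FGF above TGFb. Libraries of at least 500 counts gave 0% in SB, 0.0120% in TGFb, 0.0330% in NT and 0.0576% in FGF. Every SD exceeds its mean, so that these moves stay within 1 SD says little. Depth limits every value: 3 counts are 0.0202% of the deepest library.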

Other observations

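Single markers of other cell types ranged from 0 counts to counts in all 14 libraries. Of 8 pluripotency miRNAs, 2 had counts: miR-302a-3p (2 counts) and miR-372-3p (3 counts), with 0 counts of miR-302b-3p, miR-302c-3p, miR-302d-3p, miR-367-3p, miR-371a-5p and miR-373-3p. Of 5 heart muscle miRNAs, miR-1-3p had 22 counts and miR-133a-3p had 12, and miR-208a-3p, miR-208b-3p and miR-499a-5p had 0. Of 7 blood miRNAs, 4 had counts, 27 in sum. These were miR-142-3p (14 counts), miR-486-5p (6), miR-142-5p (4) and miR-223-3p (3), while miR-451a, miR-144-3p and miR-150-5p had 0. The endothelial miR-126-3p had 79 counts in 12 libraries. Of 3 neural miRNAs, miR-9-5p had 94 counts and was found in all 14 libraries, while miR-9-3p and miR-124-3p had 0.

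miR-1247-5p, from the DIO3 end of the domain and the opposite strand, had more counts (12) than the 91 miRNAs between the outer 14q32 hairpins together (7), and all 12 were in libraries numbered 4.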
